A study of Mus musculus with 6 samples.

Results

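The Bcl2 family decides at the mitochondrion whether a stressed cell lives. Its genes were compared between stem and multipotent cells (LSK) and committed progenitors (LK) of mouse blood formation. The genes follow a rule that uses no measured value but was set with earlier results of these data known. All 10 were taken by name, for their place in the family. They are Bcl2, Bcl2l1, Mcl1 and Bcl2l2, whose products keep cells alive, Bax and Bak1, which open the mitochondrion, and Bcl2l11, Bbc3, Pmaip1 and Bid, which report damage. A gene was measured where the array carried a probe set (a group of short probes read together) annotated to it alone, which held for 9 of the 10 genes, among 18193 genes in all. Bax is not analysed here. The 9 genes had 31 such probe sets, and 0 probe sets listed a member among several genes. Where a gene had several, the brightest on the log2 scale, averaged over the arrays, represents it.

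Both populations came from wild-type mice of strain C57BL/6, with no treatment of the mice named for either, and were sorted by flow cytometry as cells low in lineage markers that carry the receptor Kit. LSK cells also carried Sca-1, and 3 samples of them were measured. LK cells lacked Sca-1, and 3 samples were measured. Neither gate holds a single cell type: LSK mixes stem cells with multipotent progenitors, and LK mixes erythroid, megakaryocyte, granulocyte and monocyte progenitors. In such bulk samples fewer cells that express a gene and less RNA of it per cell cannot be told apart. The labels give no age and do not say whether the samples came from separate animals.

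The markers followed the labels. All 7 measured stem and multipotent genes rose in LSK (limma adjusted p under 0.05), 6 of 7 erythroid genes fell in LSK, and 4 of 6 granulocyte and monocyte progenitor genes fell in LSK. Kit had a log2 intensity of 8.11 to 8.86 in LSK and 7.33 to 7.95 in LK; Ly6a, which encodes Sca-1, is not analysed here. Of the B-cell genes 4 of 5, and of the T-cell and NK-cell genes 5 of 5, had a mean log2 intensity under 4, a level taken here as dim (the median gene stood at 3.34). The 6 mature neutrophil genes were bright in both populations, with summed log2 levels of 59.3 to 65.8 in LSK and 55.6 to 63.5 in LK, and 0 of them passed. Within each pair of the same replicate number the neutrophil sum was higher in LSK, and with that number as a block 4 of the 6 (Ngp, Camp, Ltf and Lcn2) were higher in LSK. Of the megakaryocyte genes 0 of 6 passed, of the mast cell and basophil genes 1 of 4 was lower in LSK, and of the macrophage genes 1 of 5 was higher. The block also called Kit higher in LSK (adjusted p = 0.0185, against 0.124 without it), and its counts were 7 of 7 lower for erythroid, 5 of 6 lower for granulocyte and monocyte progenitor and 3 of 4 lower for mast cell and basophil genes, with 1 megakaryocyte and 1 macrophage gene higher and 1 of each lower. The replicate 2 arrays of both populations stood apart on the second principal component (-31.7 in LSK and -41.2 in LK, against 7.25 to 29.8 on the other 4). Control transcripts read at both ends show how complete the RNA was after its linear amplification and labelling. How complete it was before those steps was not measured. Signal at the 3' end exceeded that at the 5' end by 2.32, 2.32 and 3.30 log2 units in LSK and 3.26, 3.94 and 3.40 in LK. An exact permutation test gave a two-sided p of 0.2 (groups of this size cannot go below 0.1).

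The products of the family act on the outer mitochondrial membrane. Guardians (Bcl2, Bcl-xL from Bcl2l1, Mcl1 and Bcl-w from Bcl2l2) hold the effectors Bax and Bak in check. BH3-only proteins (Bim from Bcl2l11, Puma from Bbc3, Noxa from Pmaip1, and Bid) bind the guardians or the effectors and release the block. Free effectors form pores through which cytochrome c leaves the mitochondrion, and caspases follow. In mice, blood stem cells depend on Mcl1 and late erythroid cells on Bcl2l1.

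No member passed the test across all genes, and the lowest p-values belonged to Bid, Mcl1, Bcl2l2 and Bak1. Of the 9 measured members, 0 had a limma adjusted p under 0.05 and 4 had an unadjusted p under 0.05. Among all genes, 6.73% passed the adjusted threshold, 3.84% higher in LSK and 2.89% lower in LSK, and 22.4% had an unadjusted p under 0.05. The 4 were the guardians Mcl1 and Bcl2l2, higher in LSK, and the effector Bak1 and the BH3-only gene Bid, lower in LSK. With the replicate number as a block, which sets each LSK array against the LK array of the same number, 3 members passed: Bcl2l2 was higher in LSK, and Bak1 and Bid were lower. That fit called 14.4% of all genes, so its count is read against this share. The 3 LSK arrays and the 3 LK arrays did not overlap in 5 members, 3 of them higher in LSK and 2 lower, against 28% of all genes (13.2% higher and 14.8% lower). The median log2 difference, LSK minus LK, was 0.06 over the 9 members and -0.02 over all genes. The median size of the difference was 0.47 over the members and 0.22 over all genes. These shares and medians compare unlike levels, since 2 of the 9 members were dim, against 10685 of the 18193 genes. With genes kept only at a log2 of 4 or more on at least 3 arrays, 1 of 7 members passed, against 1559 of 7623 genes.

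**Figure D1:**
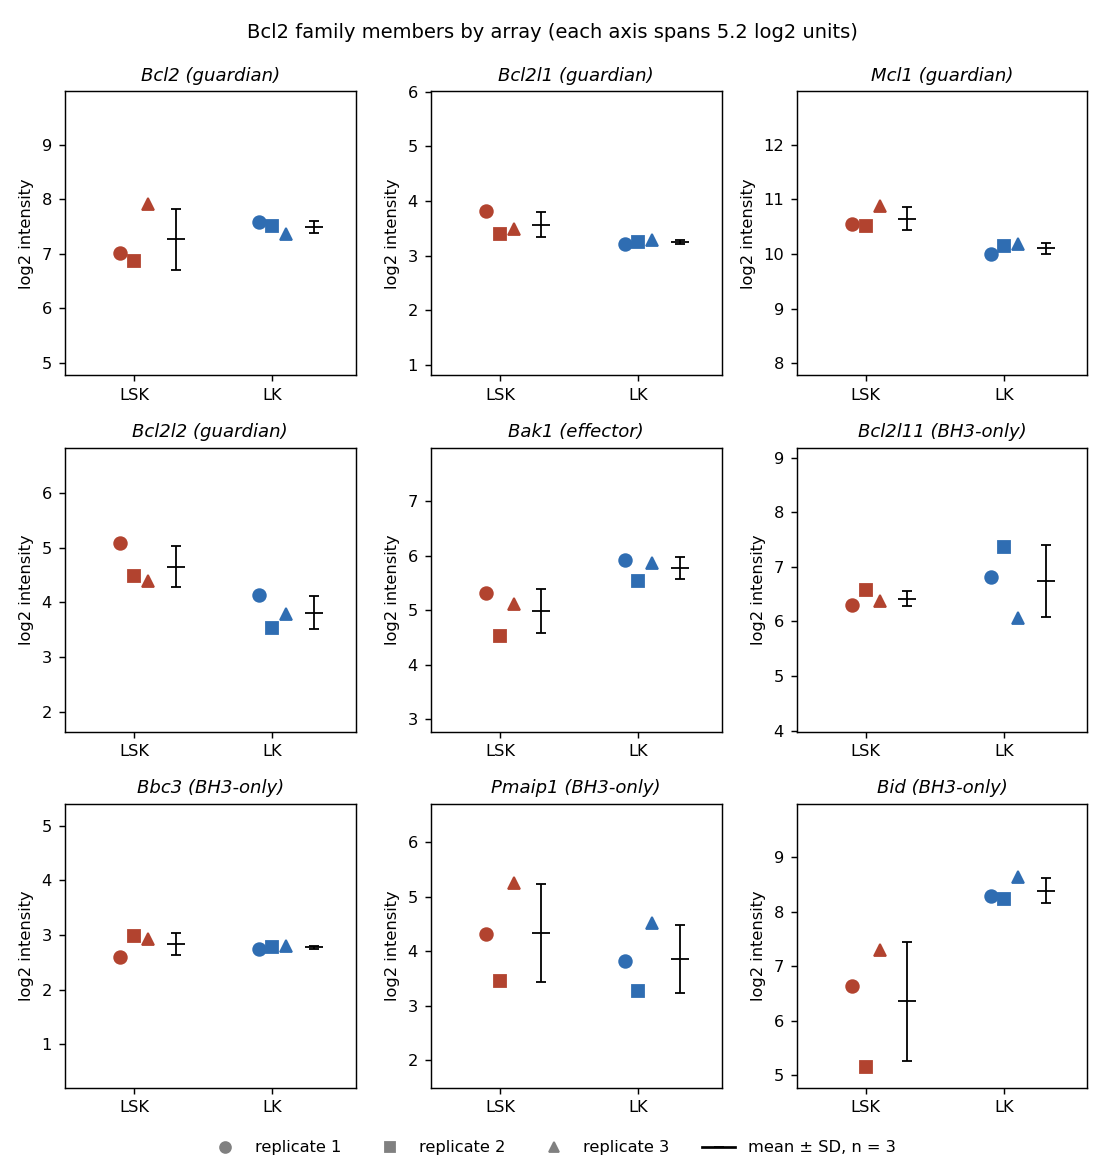
Log2 intensity (vertical axis) of the 9 measured Bcl2 family genes on the 3 LSK and the 3 LK arrays, with a marker shape for each replicate number and black bars for mean ± SD (n = 3). Every axis spans the same range; the LSK arrays of Bid lie between 5.16 and 7.29, all below the LK arrays, and the arrays of Bcl2, Bcl2l11, Bbc3 and Pmaip1 overlap.

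These 4 promoters are shown because their genes, Bid, Bak1, Mcl1 and Bcl2l2, carry the differences described here. Each run is the 250 bases before the annotated start of the gene, read 5′ to 3′ on the strand of the gene, from RefSeq on build GRCm38.p6. The Bid window is chr6:120916825-120917074, minus strand, Bak1 at chr17:27028628-27028877, minus strand, Mcl1 at chr3:95658471-95658720, plus strand and Bcl2l2 at chr14:54883175-54883424, plus strand. Capitals mark a GC box (GGGCGG, bound by Sp1 and Klf proteins) or an ETS core (CCGGAAG), on either strand.
Bid: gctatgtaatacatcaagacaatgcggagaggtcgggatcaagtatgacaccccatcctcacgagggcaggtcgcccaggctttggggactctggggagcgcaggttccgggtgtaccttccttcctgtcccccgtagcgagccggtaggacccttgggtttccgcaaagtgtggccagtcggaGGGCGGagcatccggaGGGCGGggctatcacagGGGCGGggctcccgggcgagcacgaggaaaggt
Bak1: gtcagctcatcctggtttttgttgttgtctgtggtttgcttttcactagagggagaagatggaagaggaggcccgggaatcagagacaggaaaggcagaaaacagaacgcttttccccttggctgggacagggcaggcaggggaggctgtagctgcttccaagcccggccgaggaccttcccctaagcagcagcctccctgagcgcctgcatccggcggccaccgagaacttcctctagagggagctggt
Mcl1: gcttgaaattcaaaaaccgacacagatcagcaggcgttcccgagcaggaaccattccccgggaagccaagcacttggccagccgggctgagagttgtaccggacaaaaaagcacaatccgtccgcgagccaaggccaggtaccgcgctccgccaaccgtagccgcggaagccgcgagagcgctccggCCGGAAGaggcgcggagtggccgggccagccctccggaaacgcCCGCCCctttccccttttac
Bcl2l2: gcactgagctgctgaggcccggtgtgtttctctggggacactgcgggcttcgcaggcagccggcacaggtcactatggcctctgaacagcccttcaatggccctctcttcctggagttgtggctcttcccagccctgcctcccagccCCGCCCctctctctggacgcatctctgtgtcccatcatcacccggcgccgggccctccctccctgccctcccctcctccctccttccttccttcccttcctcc
The Bid promoter held 3 GC boxes, which begin 66, 50 and 33 bases before the start. Mcl1 held a GC box 20 bases and an ETS core 63 bases before the start, and Bcl2l2 a GC box 103 bases before it. The GC box was present in 32.7% of all 32851 promoter windows of this length and the ETS core in 6.91%. G and C made up 58.4% (Bak1) to 66.0% (Bcl2l2) of these 4 windows, against a median of 52.4% over all windows. The shares therefore compare windows of unlike base content. The Bak1 window held none of the 8 motifs searched. The other 6 motifs, in none of these 4 windows, were the CCAAT box (CCAAT, 33.8% of all windows), the TATA box (TATAAA, 12.4%), a GATA site (AGATAA, 9.99%), a STAT site (TTCNNNGAA, 7.02%), the E-box (CACGTG, 6.02%) and the cyclic AMP element (TGACGTCA, 1.55%). A match describes letters and is not a measured binding site.

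Mcl1, a short-lived guardian that binds Bak and Bim, was higher in LSK on every one of its 6 probe sets, by between 1.23-fold and 2.19-fold. Its representative had log2 intensities of 10.55, 10.50 and 10.88 in LSK and 9.99, 10.14 and 10.19 in LK. All LSK arrays lay above all LK arrays. The log2 difference was 0.54 (SE 0.15, 95% interval 0.17 to 0.90), which is 1.45-fold (limma adjusted p = 0.0895). The name of this probe set carries a suffix that marks probes able to bind related transcripts.

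The other Mcl1 probe sets differed in how far the populations stood apart. The probe set 1416880_at, which has no such suffix, had log2 intensities of 9.99, 10.22 and 10.11 in LSK and 8.84, 8.93 and 9.15 in LK. Its difference was 1.13 (SE 0.14), or 2.19-fold, and it was past the threshold over all 45037 probe sets (limma adjusted p = 0.0131), of which 3.21% passed. It was the only one of the 31 probe sets of the members to do so. Its adjusted p was 0.0537 when LSK replicate 1 was left out and 0.0505 when LK replicate 3 was. The probe set 1448503_at, also without a suffix, had 9.63, 9.62 and 10.12 in LSK and 9.32, 9.57 and 9.58 in LK, a difference of 0.30 with a 95% interval of -0.13 to 0.72. That interval does not reach the interval of 1416880_at, 0.80 to 1.46. All 6 Mcl1 probe sets had LSK arrays above LK arrays without overlap, against 23.7% of all probe sets without overlap in either direction. The probe sets of a gene read the same RNA and are not replicates. The 3' to 5' control difference, given above, was also lower on average in LSK (2.64 against 3.53 in LK), and its part in the spread between Mcl1 probe sets was not tested. The summed neutrophil genes, given above, were higher in LSK in all 3 pairs, as Mcl1 was, although the populations overlapped; their part in the Mcl1 difference was not tested.

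Bcl2l2 encodes the guardian Bcl-w. It had log2 intensities of 5.08, 4.47 and 4.40 in LSK and 4.13, 3.52 and 3.78 in LK. The LSK arrays all lay above the LK arrays, although 2 of the 3 LK arrays were under 4. The difference was 0.84 (SE 0.24, 95% interval 0.26 to 1.42), 1.79-fold higher in LSK (limma adjusted p = 0.0944, and 0.0204 in the blocked fit). Within the pairs of the same number, LSK exceeded LK by 0.95, 0.95 and 0.62. The other 3 probe sets had mean log2 intensities under 4 in both populations and differences of 0.23, 0.27 and -0.03, so the higher value in LSK rests on a single probe set.

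Bcl2, the founding guardian, did not differ beyond its spread. Its log2 intensities were 7.01, 6.87 and 7.90 in LSK and 7.58, 7.50 and 7.36 in LK. LSK replicate 3 was the highest of the 6 arrays and the other LSK arrays were the lowest. The difference was -0.22 (SE 0.28, 95% interval -0.89 to 0.44; limma adjusted p = 0.708), and it was -0.54 with LSK replicate 3 left out (adjusted p = 0.105), -0.10 with LSK replicate 1 left out and -0.03 with LSK replicate 2 left out. The other 4 Bcl2 probe sets had differences from 0.05 to 0.64, opposite in sign to the representative, and none passed. The interval leaves room for LSK levels lower or higher than those of LK.

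Bcl2l1, which encodes Bcl-xL, was dim in both populations. Its brightest probe set had log2 intensities of 3.82, 3.39 and 3.49 in LSK and 3.21, 3.24 and 3.29 in LK, and the LSK arrays all lay above the LK arrays. The difference was 0.32 (SE 0.15, limma adjusted p = 0.275). Its other 3 probe sets stood at mean log2 intensities from 2.60 to 2.72 in either population, with differences from -0.09 to -0.04. The 7 erythroid genes summed to 28.8 to 33.5 log2 units in LSK and 54.2 to 63.0 in LK, and no Bcl2l1 probe set was past the threshold in either direction.

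Bak1 encodes Bak, an effector that sits in the outer mitochondrial membrane. It had log2 intensities of 5.31, 4.53 and 5.11 in LSK and 5.91, 5.53 and 5.86 in LK. Every LSK array lay below every LK array. The difference was -0.79 (SE 0.23, 95% interval -1.34 to -0.24), 1.72-fold lower in LSK (limma adjusted p = 0.0981, and 0.0247 in the blocked fit). The pairs of the same number differed by -0.61, -1.0 and -0.75. The second Bak1 probe set stood at 2.53 ± 0.13 in LSK and 2.57 ± 0.02 in LK (SD, n = 3), at the lower end of the range, and had a difference of -0.03.

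Bid, which caspase-8 cuts to carry a death-receptor signal to the mitochondrion, had the largest difference of the 9 members. Its log2 intensities were 6.63, 5.16 and 7.29 in LSK and 8.28, 8.23 and 8.64 in LK. All LSK arrays lay below all LK arrays, and they spread much more widely, with an SD of 1.09 in LSK and 0.22 in LK. The difference was -2.02 (SE 0.51, 95% interval -3.24 to -0.81), 4.06-fold lower in LSK (limma adjusted p = 0.0658). In the blocked fit the adjusted p was 0.0201, and the pairs of the same number differed by -1.65, -3.07 and -1.35. Without LSK replicate 2, the lowest array, the difference was -1.42 (adjusted p = 0.0461), and without LSK replicate 3, the highest LSK array, it was -2.49 (adjusted p = 0.0319). Without any other array it did not pass (adjusted p up to 0.198).

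The second Bid probe set, 1 of those with a suffix, gave a smaller difference of the same sign. It had 3.58, 3.38 and 4.28 in LSK and 4.62, 4.23 and 5.75 in LK, a difference of -1.12 (SE 0.42, limma adjusted p = 0.233 over all probe sets, 0.0176 with the block). The third stood at 2.85 ± 0.15 in LSK and 2.99 ± 0.32 in LK and had a difference of -0.14. Over the LSK arrays the summed mast cell, erythroid, mature neutrophil and macrophage markers had the same order as Bid, and the granulocyte and monocyte progenitor markers shared only its highest array. The upper quartile of linear intensity on LSK replicates 1 to 3 (25.6, 22.1 and 25.8) had that order too. So did the summed log2 level of the guardians (26.5, 25.2 and 26.7). On LK replicates 1 to 3 the upper quartile was 24.9, 20.8 and 24.3, an order that Bid did not share. LSK replicate 3, where Bid was highest, had the highest summed log2 level of the 6 granulocyte and monocyte progenitor genes in LSK (56.4, against 49.2 and 51.2 on the other 2), of the 4 mast cell and basophil genes (19.2, against 15.02 and 13.6), of the 7 erythroid genes (33.5, against 32.3 and 28.8), of the 6 neutrophil genes (65.8, against 62.6 and 59.3) and of the 5 macrophage genes (19.0, against 16.6 and 15.2). In LK these sums were 58.8 to 65.3, 19.4 to 23.2, 54.2 to 63.0, 55.6 to 63.5 and 16.3 to 20.0. The mast cell and basophil sum and the neutrophil sum had the order of Bid over the LK arrays too. Within every pair of the same number the mast cell and basophil sum was lower in LSK, as Bid was, and the neutrophil sum was higher. The part of these markers and of the level of the whole array in the Bid difference was not tested.

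**Figure D2:**
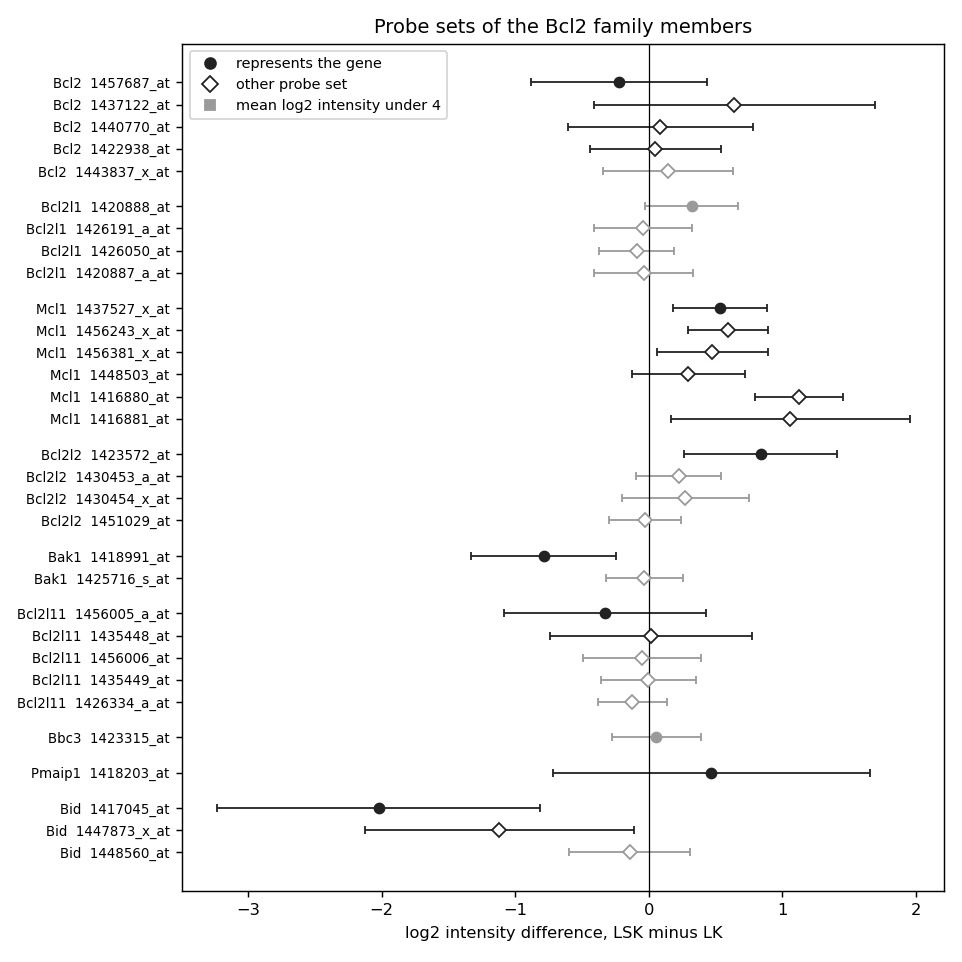
Log2 intensity difference, LSK minus LK (horizontal axis, bars for 95% intervals from limma), of the 31 probe sets of the members. Filled circles represent the gene, open diamonds are its other probe sets, and grey marks a mean log2 intensity under 4; all 6 Mcl1 probe sets lie to the right of 0, between 0.30 and 1.13, and all 3 Bid probe sets to its left.

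The genes whose pattern over the 6 arrays was most like that of Bid were Umps, which encodes an enzyme of pyrimidine synthesis, Iqgap3, a scaffold protein, and Clspn, an adaptor of the replication checkpoint. Likeness was the root mean square difference between log2 values centred on each gene, which was 0.18, 0.19 and 0.21 log2 units. Umps had log2 intensities of 6.58, 4.77 and 7.15 in LSK and 8.25, 7.88 and 8.14 in LK (difference -1.92, limma adjusted p = 0.101, 0.0330 with the block). Iqgap3 had a difference of -1.81 (adjusted p = 0.0592, 0.0216 with the block) and Clspn of -1.97 (adjusted p = 0.0402). Umps passed with LSK replicate 2 left out (0.0494) and Iqgap3 with LSK replicate 3 left out (0.0197). Clspn missed the threshold without LSK replicate 1 or any 1 LK array (up to 0.125), with arrays centred on the median (0.0501) and with 32 added before log2 (0.0575). With the mean of the probe sets the differences were -0.78 for Umps, -0.95 for Iqgap3, which then passed (0.0479), and -0.87 for Clspn, which did not (0.0917). The 3 genes were chosen for their likeness to Bid over all 6 arrays. Their order over the arrays and the direction and approximate size of their differences therefore follow from the choice. Their adjusted p-values depend on that choice too and lend the Bid difference no separate support.

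Bcl2l11 encodes Bim, a BH3-only protein that binds every guardian. It had log2 intensities of 6.30, 6.57 and 6.38 in LSK and 6.82, 7.36 and 6.06 in LK. The LK arrays spread on both sides of the LSK arrays. The difference was -0.33 (SE 0.32, 95% interval -1.09 to 0.44; limma adjusted p = 0.622), and it was -0.67 with LK replicate 3 left out and -0.02 with LK replicate 2 left out. The next brightest of its 5 probe sets had a difference of 0.02 (SE 0.32).

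Pmaip1 encodes Noxa, which binds Mcl1, and Bbc3 encodes Puma. Both are known targets of p53 in mice, and the p53 gene Trp53 is not analysed here. Pmaip1 had log2 intensities of 4.31, 3.45 and 5.24 in LSK and 3.82, 3.27 and 4.51 in LK. The arrays overlapped and followed their replicate number, with replicate 3 highest and replicate 2 lowest in both populations. LSK was higher than LK in all 3 pairs, by 0.49, 0.19 and 0.74, and the difference of 0.47 (SE 0.50, 95% interval -0.72 to 1.66) did not pass (limma adjusted p = 0.651, and 0.117 in the blocked fit). It was 0.016 with LSK replicate 3 left out, 0.17 with LK replicate 2 left out, 0.91 with LSK replicate 2 left out and 0.79 with LK replicate 3 left out. Bbc3 had 2.60, 2.98 and 2.92 in LSK and 2.74, 2.79 and 2.80 in LK, all at the lower end of the range. Its difference was 0.06 (95% interval -0.29 to 0.40, limma adjusted p = 0.867).

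Beyond the 10 genes, the death pathway was read from 50 listed genes, of which 41 were measured. With limma, 1 was higher in LSK, 4 were lower and 36 did not pass, against 3.84% of all genes higher and 2.89% lower. In the blocked fit 5 were higher in LSK and 8 lower, where 7.02% and 7.36% of all genes were. Of the 41, 12 had a mean log2 intensity under 4, against 10685 of all 18193 genes. With genes kept only at a log2 of 4 or more on at least 3 arrays, 6 of 29 passed, against 1559 of 7623 genes. The median log2 difference of the 41 was -0.075. Leaving out 1 array moved the number past the threshold to 0 (LSK replicate 1 or LK replicate 3), 2 (LSK replicate 2) or 3 (LK replicate 1).

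In the apoptosome and caspase list, Cycs and Aifm1 fell in LSK. Cycs, which encodes cytochrome c, had log2 intensities of 8.82, 8.54 and 9.12 in LSK and 10.01, 10.07 and 10.20 in LK, without overlap. It fell in LSK by 1.26 on the log2 scale (SE 0.18), or 2.40-fold (limma adjusted p = 0.0123). Aifm1, a flavoprotein of the intermembrane space that supports the respiratory chain, had 6.36, 5.98 and 6.94 in LSK and 7.96, 7.51 and 7.72 in LK (2.46-fold lower in LSK, adjusted p = 0.0363). These were the 2 of 9 measured genes of the list past the threshold, and 0 were higher. Endog, a mitochondrial nuclease of the same list, did not pass (difference -1.06, adjusted p = 0.0881, 0.0138 with the block). Cycs no longer passed when LSK replicate 1 or LK replicate 3 was left out (adjusted p 0.0591 and 0.0627). Aifm1 passed without LSK replicate 3 and missed the threshold without any other single array (up to 0.123).

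Among the 6 genes of the inhibitor of apoptosis (IAP) proteins and their antagonists, only Htra2 passed, while Diablo, which encodes another mitochondrial IAP antagonist, had a difference of -0.13 (adjusted p = 0.741) and overlapped. Htra2 encodes a mitochondrial serine protease that antagonises IAP proteins when released. It had 8.42, 8.47 and 9.14 in LSK and 10.20, 10.50 and 10.24 in LK, and every LSK array lay below every LK array. It was 3.10-fold lower in LSK (limma adjusted p = 0.0120), and missed the threshold when LSK replicate 1 (0.0545) or LK replicate 3 (0.0553) was left out.

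Upstream of Bid, the only gene to pass in the death receptor list, 1 of 7 measured, was Cflar, whose product c-FLIP blocks the activation of caspase-8. Cflar had log2 intensities of 8.86, 9.05 and 8.54 in LSK and 7.59, 7.81 and 7.96 in LK. It rose in LSK by 1.03 on the log2 scale (SE 0.18), or 2.04-fold (limma adjusted p = 0.0257), with no overlap between the populations. Left out singly, every array but LSK replicate 3 took it above 0.05 (adjusted p up to 0.0956). The difference was 0.47 with the mean of its probe sets, where it did not pass.

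Of 8 measured genes that act on the members, 1 passed. Vdac2, an outer-membrane channel that holds Bak at the mitochondrion, had 9.25, 9.16 and 9.77 in LSK and 10.55, 10.13 and 10.53 in LK. Like Bak1, it was lower in LSK on every array, here 2.01-fold (limma adjusted p = 0.0402). Here too only the fit that omits LSK replicate 3 kept the call (the others up to 0.142). None of Cycs, Aifm1, Htra2, Cflar and Vdac2 passed without the replicate 2 arrays of both populations, Aifm1 and Vdac2 did not with 32 added before log2, and Vdac2 did not with arrays centred on the median. Of the 11 other Bcl2 family genes measured, 0 passed with limma and 0 with the block, and 6 had a mean log2 intensity under 4. The lowest p there belonged to Bcl2l13, a mitochondrial relative of Bcl2, with 4.96, 4.65 and 4.92 in LSK and 6.34, 4.80 and 5.94 in LK (difference -0.85, adjusted p = 0.252). Its difference was -1.30 with LK replicate 2 left out (0.0291) and -0.53 with LK replicate 1 left out (0.460), and it passed with no other single array left out (up to 0.494).

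**Figure D3:**
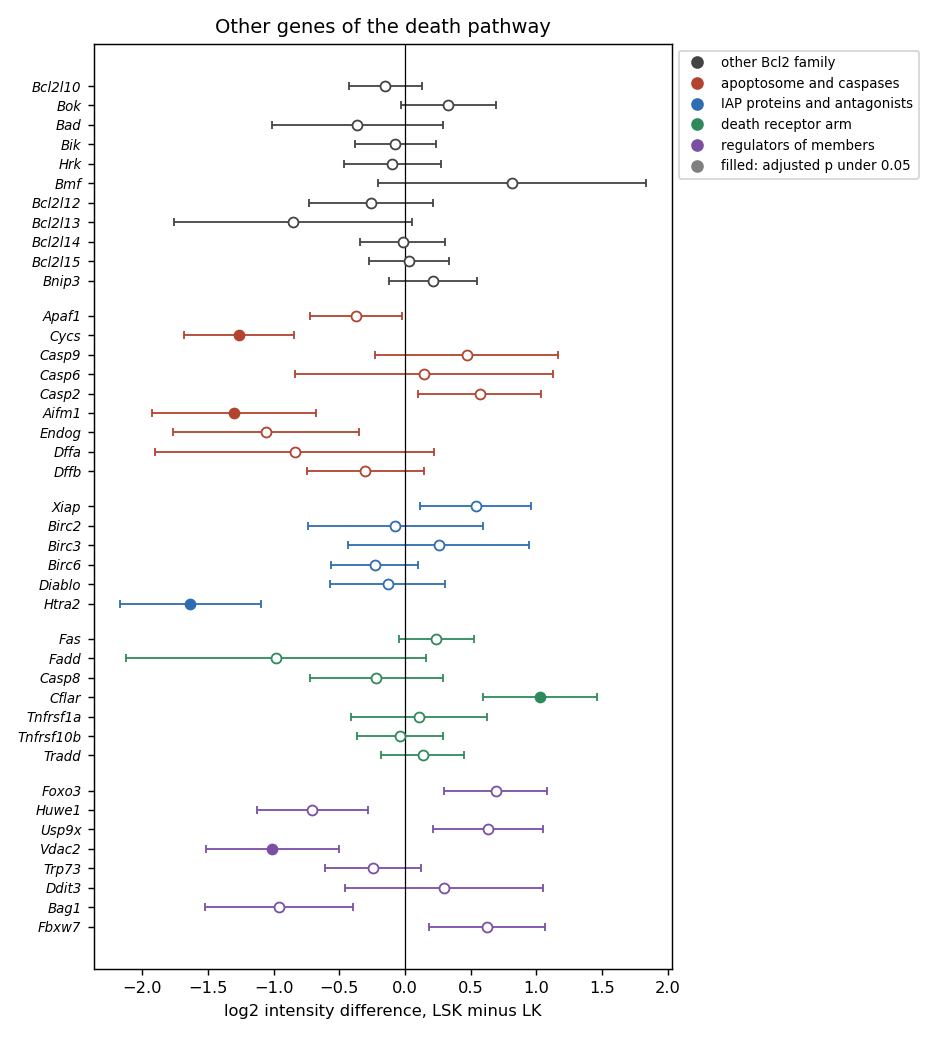
Log2 intensity difference, LSK minus LK (horizontal axis, bars for 95% intervals from limma), of the 41 measured death pathway genes outside the members, coloured by list. Filled points passed the adjusted threshold: Cycs, Aifm1, Htra2 and Vdac2 lie left of 0 and Cflar right of it.

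The 4 members with an unadjusted p under 0.05 kept their direction under all 18 alternatives, and how often each passed differed. Bid passed in 8, with log2 differences from -2.49 to -1.09. Bak1 passed in 4, with differences from -0.95 to -0.41. Bcl2l2 and Mcl1 each passed in 2, with differences from 0.31 to 1.0 and from 0.30 to 0.68. The adjusted p of the 4 reached 0.198, 0.265, 0.247 and 0.428 in that order.

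**Figure D4:**
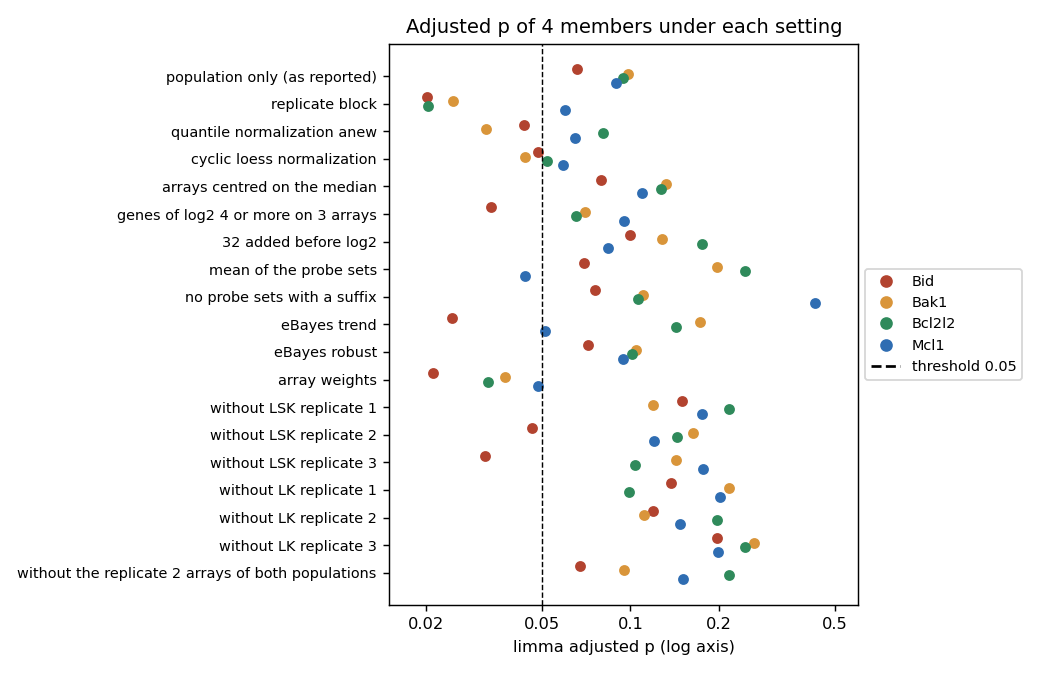
Limma adjusted p (horizontal log axis) of Bid, Bak1, Bcl2l2 and Mcl1 under the reported fit (top row) and each of the 18 alternatives. In the reported fit all 4 lie right of the dashed threshold at 0.05, between 0.0658 and 0.0981, and with array weights all 4 lie left of it.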

How the data were processed

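Sorted cells were lysed and their RNA underwent linear amplification and biotin labelling before array hybridisation, per the labels' protocols. RMA (package affy, R 2.11.0) gave the deposited intensity of each probe set, per the submitters' processing notes; the values are linear. Because RMA brings the arrays toward a common level, a change common to most genes cannot be measured. The deposited arrays were still not equal, with upper quartiles of linear intensity from 20.8 (LK replicate 2) to 25.8 (LSK replicate 3). Precision is limited by the number of arrays.

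Of 45101 probe sets, 64 controls were left out and 34945 carried exactly 1 gene symbol, updated through RefSeq (GRCm38.p6). Log2 intensities were compared with limma 3.58.1 (R 4.3.3, lmFit then eBayes, two-sided; population was the sole covariate), adjusted by Benjamini-Hochberg over 18193 genes or 45037 probe sets, threshold 0.05. On simulated data the fit recovered 70% of genes changed by 1.5 log2 units and 92% of those changed by 3, with 2 false calls. Smaller changes, such as those of every member but Bid, were not simulated. Differences are LSK minus LK. The members and lists were chosen with earlier results of these data known. The text names every member, per pathway list the called genes (at most 4) or the one with the lowest p, and the 3 genes most like the member with the largest difference.

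The labels number samples 1 to 3 in both populations. Same-numbered samples deviated together (correlation of deviations across genes 0.42, 0.43 and 0.27, at most 0.04 between other numbers). Equal numbers were therefore treated as pairs in the blocked fit and in the differences within pairs. The reported fit does not use the pairs, and this pairing rests on the data, not on the labels. No label says that samples are separate animals, and p-values then measure only how these samples vary, which may be technical. Among 15 pairs of arrays 0 held identical values. Alternatives were the replicate block, other normalisations, low-value filters, probe set choices, variance models, array weights and leaving out arrays.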

Additional observations from a re-analysis of the deposited data

How the results depend on the processing

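The number of members past the threshold was 0 in the reported limma fit (4 at an unadjusted p under 0.05), 3 with the replicate number as a block, 2 with quantile and 2 with cyclic loess normalisation, 1 with dim genes left out, 1 with the mean of the probe sets, 1 with a variance trend, 4 with array weights and 0 to 1 without each array in turn. For the other pathway genes it was 5 as reported, 13 with the block, 9 with quantile, 8 with cyclic loess, 3 with 32 added before log2, 11 with array weights, 1 without the replicate 2 arrays of both populations and 0 to 5 without each array. For the probe sets of the members it was 1 as reported, 7 with the block, 3 with quantile, 2 with cyclic loess, 2 with dim probe sets left out and 0 to 2 without each array. Over all genes it was 1225 as reported, 2617 with the block, 2606 with array weights, 537 without the replicate 2 arrays and 306 to 1269 without each array. The sign turned for Bcl2 with the mean of the probe sets (0.14), for Bcl2l11 without suffixed probe sets (0.016) and with array weights (0.081), for Bbc3 with array weights (-0.00036), without LSK replicate 2 (-0.016, where leaving out each array gave -0.016 to 0.174) and without the replicate 2 arrays (-0.0098), and for Usp9x with the mean of the probe sets (-0.045), and none of these passed. The causes were not tested. The calls that the block changed among members, marker lists and genes named above stand beside them. In the pathway lists the blocked limma fit also called Casp2 (adjusted p = 0.0499) and Foxo3 (0.0377) higher in LSK. It called Dffa (0.0363), Fadd (0.0399) and Bag1 (0.0219) lower in LSK. Of the Mcl1 probe sets it added 1416881_at (0.0221) and 1456243_x_at (0.0458), higher in LSK. The 3' to 5' difference (-0.89) kept its direction without each array (-1.22 to -0.69). Brightness limits Bcl2l1, Bbc3 and 14 of the 31 probe sets, with means under a log2 of 4.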

Other observations

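Of the 8 measured genes that act on the members, 6 had arrays that did not overlap between the populations, against 28% of all genes. This list had the highest such share, and over all 41 measured pathway genes the count was 18. The other lists had 5 of 9 (apoptosome and caspases), 3 of 6 (IAP), 2 of 7 (death receptor) and 2 of 11 (other Bcl2 family). Of the 8 genes 2 were dim, against 10685 of all 18193 genes. Usp9x, Huwe1 and Fbxw7, known to set how long the Mcl1 protein lasts, are among the 6 and were named after their values were seen; none of the 3 passed the limma threshold. Usp9x, a deubiquitinase that stabilises Mcl1, had log2 intensities of 10.23, 10.35 and 9.92 in LSK and 9.61, 9.70 and 9.30 in LK, without overlap (difference 0.63, adjusted p = 0.0864, 0.0308 with a replicate block). With the mean of its probe sets the difference was -0.045. Huwe1, a ubiquitin ligase for Mcl1, had 6.73, 6.45 and 6.87 in LSK and 7.62, 7.37 and 7.18 in LK, also without overlap (difference -0.71, adjusted p = 0.0651, 0.0516 with the block). With the mean of its probe sets the difference was -0.15 (adjusted p = 0.615). Fbxw7, the substrate receptor of another ligase for Mcl1, was higher in LSK, with 7.74, 8.16 and 7.69 in LSK and 7.12, 7.49 and 7.11 in LK (difference 0.62, adjusted p = 0.101, 0.0321 with the block). With the mean of its probe sets the difference was 1.08 and it passed (adjusted p = 0.0242).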
